A study of Mus musculus with 2 samples.

Results

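The embryonic and adult globin genes of mouse liver at embryonic day 18 (E18) were followed through the deposited gene and transcript tables, the junction list and the contig list. The 9 genes were matched by symbol: 5 alpha-like genes on chromosome 11 (Hba-a2, Hba-a1, Hbq1b, Hbq1a and Hba-x) and 4 beta-like genes on chromosome 7 (Hbb-bs, Hbb-bt, Hbb-y and Hbb-bh1). They are 9 of 43346 mouse genes in the gene tables, and 15 of their transcripts were quantified. Untreated liver of the inbred strain C57BL/6J gave 2 stranded poly(A)+ RNA-seq libraries, which form 1 group and are numbered in the labels as biological replicates. The labels describe tissue pooled over male and female littermates, depletion of rRNA, a lower size limit on the RNA and paired reads of 101 bases. Both libraries carry the same donor entry under separate biosample entries, and no label says whether they came from separate litters, so the spread between them may be technical. With 1 group of 2 libraries there was no contrast between conditions and no p-value.

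Haemoglobin is a tetramer of alpha-like and beta-like chains, each holding a haem group, and red cells carry oxygen with it. The genes of each cluster are used in succession during development: Hba-x (zeta), Hbb-y (epsilon-y) and Hbb-bh1 (beta-h1) serve the primitive red cells of the yolk sac, while Hba-a1, Hba-a2, Hbb-bs and Hbb-bt serve the definitive red cells that mature in the fetal liver and later in bone marrow. Hbq1a and Hbq1b are theta-like genes of the alpha cluster whose function is not settled. C57BL/6J carries the single (s) haplotype of the beta cluster, in which the adult genes are Hbb-bs and Hbb-bt. In bulk tissue, fewer cells of a type and less RNA per cell cannot be told apart.

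The upstream sequence of the genes is shown because globin genes of high and of low level in these libraries lie in the same clusters. RefSeq promoter sequences on GRCm38.p6 were found for 8 of the 9 genes, all but Hbb-bh1. The 120 bases before the RefSeq start site are printed on the strand of the gene, for all of these but Hba-a1 and Hbq1a. Capitals mark 5 words, searched on either strand. CACCC is the word bound by Klf1-type factors. CCAAT is the CCAAT box, whose other strand reads ATTGG in Hbb-bt. The box called TATAA and its variant spelled ATAAA share letters where both stand together. GATAA is the core bound by GATA factors.
Hba-a2: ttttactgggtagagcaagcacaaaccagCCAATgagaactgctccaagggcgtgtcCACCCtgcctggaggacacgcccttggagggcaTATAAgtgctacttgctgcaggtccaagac
Hbb-bs: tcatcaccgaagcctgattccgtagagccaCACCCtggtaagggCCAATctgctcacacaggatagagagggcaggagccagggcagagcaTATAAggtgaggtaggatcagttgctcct
Hbb-bt: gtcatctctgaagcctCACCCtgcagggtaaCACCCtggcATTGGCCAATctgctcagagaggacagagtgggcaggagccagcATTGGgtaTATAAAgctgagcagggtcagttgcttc
Hbq1b: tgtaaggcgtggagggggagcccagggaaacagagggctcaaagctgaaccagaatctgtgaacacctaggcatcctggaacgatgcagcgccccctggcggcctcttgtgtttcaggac
Hba-x: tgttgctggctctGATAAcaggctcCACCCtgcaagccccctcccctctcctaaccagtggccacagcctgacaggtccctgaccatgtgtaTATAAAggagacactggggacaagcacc
Hbb-y: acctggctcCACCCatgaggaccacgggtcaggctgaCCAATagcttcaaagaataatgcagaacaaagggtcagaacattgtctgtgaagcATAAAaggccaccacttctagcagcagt

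These stretches lie at chr11:32296372-32296491 (Hba-a2), chr7:103827929-103828048 (Hbb-bs), chr7:103813924-103814043 (Hbb-bt), chr11:32286844-32286963 (Hbq1b), chr11:32276480-32276599 (Hba-x) and chr7:103853208-103853327 (Hbb-y). The chromosome 11 genes are on the plus strand and the chromosome 7 genes on the minus strand. CACCC stood in this window in 6 of the 8 genes, against 31.3% of 27025 RefSeq promoters. CCAAT stood in 5 of 8, against 22.1%, and TATAA in 5 of 8, against 12.4%. ATAAA was found in 3 of 8 (20.8% of promoters) and GATAA in 1 of 8, Hba-x (10.7% of promoters). Over all 250 upstream bases of the table, GATAA stood in 6 of 8 genes, against 23.0% of promoters: Hba-x, Hbb-y and the 4 adult genes. Over the same bases, CACCC stood in 6 of 8 (51.3% of promoters) and CCAAT in 7 of 8 (34.5%). TATAA stood there in 6 of 8 (23.5%) and ATAAA in 3 of 8 (38.1%), near its share of promoters. Hba-a2 and Hba-a1 are counted separately, though alike in this sequence. Both theta-like genes held none of the 5 words in the window of 120 bases. A match describes the letters and does not show that a factor binds there.

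The adult alpha genes could not be told apart by this sequence. Over the 247 upstream bases compared without gaps at the best shift, Hba-a2 and Hba-a1 differed at 0 bases. The theta-like pair differed at 11 of 250 bases, while Hbb-bs and Hbb-bt were identical at 51.0% of 249 bases. Without gaps, an insertion or deletion would put all bases beyond it out of register. The 51.0% may therefore understate how alike the beta pair is. The coding sequences were alike in both adult pairs: Hbb-bs and Hbb-bt differed at 1 of 441 coding bases and Hba-a2 and Hba-a1 at 1 of 426, and in each pair the encoded proteins were identical. Hbb-y and Hbb-bh1 shared 70.7% and 67.3% of amino acid positions with Hbb-bs, and Hba-x shared 53.5% with Hba-a2.

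The adult genes stood far above all other globin genes in both libraries. TPM is a level per transcript length that adds up to the same total in every library. Hba-a2 (chromosome 11, 32296489 to 32297298 on mm10, plus strand), an adult alpha gene, had 87859.6 TPM in replicate 1 and 92296.5 in replicate 2. It was the highest of all mouse genes in both. Hbb-bs (chromosome 7, 103826534 to 103828096, minus strand), an adult beta gene, had 76634 and 69832 TPM, which placed it at rank 2 in replicate 1 and at rank 3 in replicate 2. Albumin, the protein-coding gene next to both in mean level, had 75316.5 and 75756.1 TPM and so stood between Hba-a2 and Hbb-bs in replicate 2 but not in replicate 1.

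Hbb-bt (chromosome 7, 103812524 to 103813996), the other adult beta gene, had 31038 and 28674 TPM. Hba-a1 (chromosome 11, 32283511 to 32284465), the other adult alpha gene, had 28219.9 and 26805 TPM. They were at ranks 5 and 6 in both libraries. The values of Hbb-bt lay above those of Hba-a1 without overlap, but the gap between their means (29856 ± 1671 and 27512 ± 1001 TPM, SD, n = 2) was near the spread. Ahsg, the fetuin gene of hepatocytes, was the next protein-coding gene below both, at 21499 and 23794 TPM. The gene next above both, mt-Atp8, had an effective length of 8.90 and 8.82 bases, which makes its 55131 and 29384.5 TPM unreliable.

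The adult genes were also measured deeply. In replicates 1 and 2, Hbb-bs had 6581821 and 4923642 expected counts and Hba-a2 had 4631453 and 3922951. Hbb-bt had 2355188 and 1770446, and Hba-a1 had 1573927 and 1274951. The order by counts thus has Hbb-bs above Hba-a2 in both libraries, the reverse of the order by TPM, since the effective length of Hbb-bs (552 and 546 bases) exceeded that of Hba-a2 (339 and 329 bases). All 9 genes together took 15147823 of 163766625 expected counts in replicate 1 and 11896959 of 139889938 in replicate 2, or 9.25% and 8.50%, but 22.4% and 21.8% of TPM.

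The theta-like gene Hbq1b came next, and the theta-like genes differed strongly from each other. Hbq1b (chromosome 11, 32286965 to 32287784) had 76.5 and 85.8 TPM from 4279 and 3869 counts. The protein-coding genes nearest to it in mean level were Imp3 (78.9 and 83.6 TPM), which serves ribosomal RNA processing, and Hgd (94.4 and 67.8 TPM), an enzyme of tyrosine breakdown. Hbq1b was below both in replicate 1 and above both in replicate 2. Its copy Hbq1a (chromosome 11, 32300069 to 32300873) had 2.64 and 3.40 TPM from 159 and 167 counts. The ratio of Hbq1b over Hbq1a was 29.0 in replicate 1 and 25.2 in replicate 2.

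The embryonic genes were detected at a low level. Hbb-y (chromosome 7, 103851749 to 103853216) had 7.32 and 8.42 TPM from 508 and 474 counts and was the highest of the 3. Hba-x (chromosome 11, 32276400 to 32278116) had 3.24 and 4.03 TPM from 295 and 300 counts. Hbb-bh1 (chromosome 7, 103841637 to 103843164) had 3.11 and 3.16 TPM from 193 and 159 counts. The values of Hbb-y did not overlap those of Hba-x or Hbb-bh1. Those of Hba-x lay just above those of Hbb-bh1 without overlap, while the range of the theta-like Hbq1a overlapped both. The authors' interval for Hbb-bh1 in replicate 1 ran between 2.68 and 3.56 TPM and for Hba-x between 2.89 and 3.63 TPM. These intervals overlapped, so the order of Hba-x and Hbb-bh1 is not firm. In the authors' tables the posterior SD of the counts of all 3 embryonic genes was 0, so no count was shared out with another gene.

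**Figure D1:**
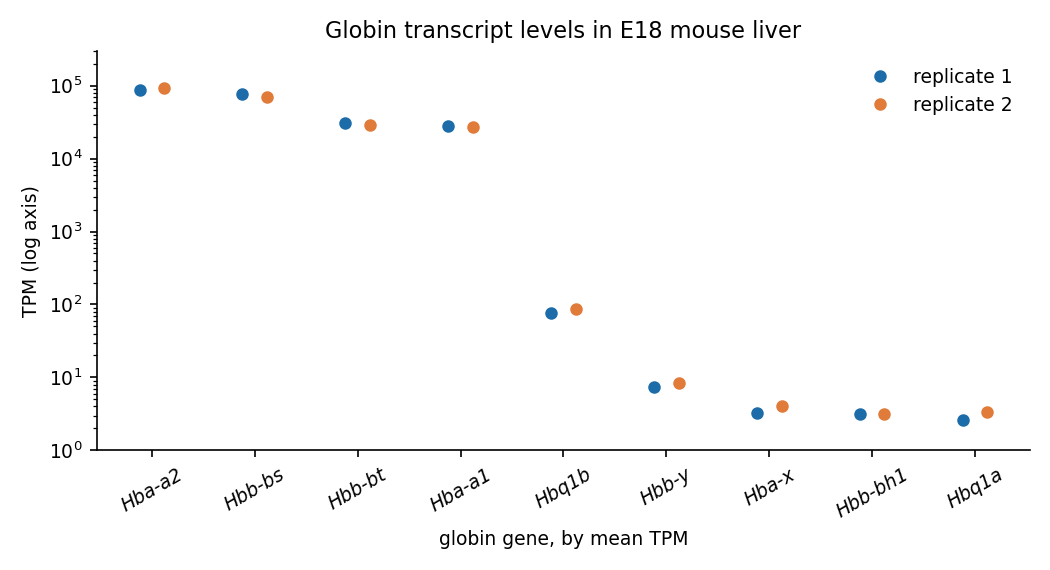
TPM of each globin gene in replicate 1 (blue) and replicate 2 (orange), on a log axis. Vertical lines give the interval deposited by the authors, which lies around their posterior mean TPM, and are mostly hidden by the points. For the 4 adult genes the plotted TPM lay above this interval in both libraries. The 4 adult genes lie between 26805 and 92296.5 TPM, Hbq1b at 76.5 and 85.8, and the other 4 between 2.64 and 8.42.

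Adult over embryonic ratios were large in both clusters. The sum of Hbb-bs and Hbb-bt was 10323 times that of Hbb-y and Hbb-bh1 in replicate 1 and 8507 times in replicate 2. Hba-a2 and Hba-a1 together stood 35827 times above Hba-x in replicate 1 and 29554 times in replicate 2. All 5 genes other than the adult ones summed to 92.8 and 105 TPM, against 223751 and 217607 TPM for the adult genes, a ratio of 2411 and 2077. Among the embryonic genes, Hbb-y stood 2.35 and 2.66 times above Hbb-bh1, and Hba-x was 0.311 and 0.348 of the embryonic beta-like sum.

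The alpha-like and beta-like sums were close, and which was larger depended on the measure. Alpha-like genes summed to 116162 and 119195 TPM and beta-like genes to 107682 and 98518 TPM. The ratio of alpha over beta was 1.08 in replicate 1 and 1.21 in replicate 2 (mean 1.14 ± 0.0927, SD, n = 2). In expected counts it was 0.695 and 0.777, so the direction turned in both libraries. With retained-intron transcripts left out of the TPM, an alternative chosen after seeing the data, it was 0.949 in replicate 1 and 1.09 in replicate 2. Under all 3 measures the ratio was lower in replicate 1.

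Sequence shared by the copies limits how well each adult pair can be split. Hba-a2 held 75.7% and 77.5% of the TPM of the adult alpha pair, and Hbb-bs held 71.2% and 70.9% of that of the adult beta pair. The authors' posterior SD of the counts was 1388 and 1285 for each alpha gene and 1081 and 864 for each beta gene, against counts of 1274951 or more. This SD covers only the sharing of reads under the authors' model. In the GENCODE M21 transcripts, where the main models of Hbb-bs, Hbb-y and Hbb-bh1 are shorter than the deposited ones, 25.8% of the windows of a read length (101 bases) of the coding transcript of Hba-a2 and 43.7% of those of Hba-a1 occurred in no other gene. For Hbb-bs it was 37.5% and for Hbb-bt 45.3%. Over windows of 221 bases, near the mean fragment length of the paired reads, these shares were 41.6% for Hba-a2, 59.3% for Hba-a1, 48.5% for Hbb-bs and 56.5% for Hbb-bt. For the theta-like genes, the windows of a read length were in no other gene at 73.6% (Hbq1b) and 75.8% (Hbq1a), and the longer windows at 99.4% and 99.5%. At either length every window of Hba-x, Hbb-y and Hbb-bh1 was found in its own gene only.

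As estimated by the authors on mm10, transcript use differed between the alpha copies, and the mm9 values given below split otherwise. Of Hba-a2, 99.95% of TPM in both libraries lay on the coding transcript and 0.05% on a shorter transcript annotated as retained intron. Of Hba-a1, the matching retained-intron transcript held 61.15% in replicate 1 and 51.63% in replicate 2, and the coding transcript held 38.85% and 48.37%. In counts, the retained-intron transcript had 748777 and 481057 for Hba-a1, against 2064 and 1620 for Hba-a2. The coding transcript of Hba-a1 had 825149 and 793894 counts, or 52.43% and 62.27% of the gene's counts, so by counts the coding transcript was the larger in both libraries. Both retained-intron transcripts have 494 bases, and 75.6% of their windows of a read length occurred in the other copy. With retained-intron transcripts left out, the share of Hba-a2 in the adult alpha pair was 88.9% and 87.7%.

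In the other genes with several transcripts, the main coding transcript held most of the TPM. It held 95.39% and 96.93% of Hbb-bs, whose retained-intron transcript held 4.54% and 2.99%. For Hbq1b it held 90.07% and 90.36%, with the rest on a retained-intron transcript. For Hba-x the longer transcript held 100% in both libraries, and in the authors' posterior mean 98.6% and 98.3%. Hbb-bt, Hbq1a, Hbb-y and Hbb-bh1 each had 1 quantified transcript.

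**Figure D2:**
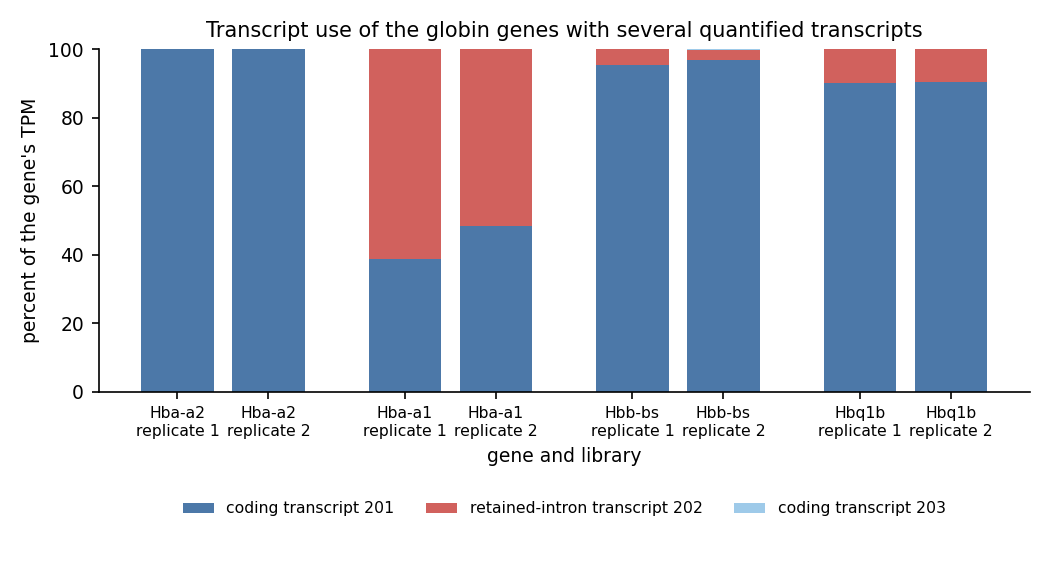
Percent of each gene's TPM on its transcripts, for the 4 globin genes with TPM on more than 1 transcript, with replicate 1 left of replicate 2. Retained-intron transcripts (red) hold 61.15% and 51.63% of Hba-a1 but 0.05% of its copy Hba-a2.

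No globin gene differed beyond 2-fold between the libraries, which was also so for most other genes. All 9 had at least 10 counts in both libraries, and 0 of 9 lay beyond 2-fold between them on TMM-scaled counts. Over all 17137 genes with at least 10 counts in both, 2.74% lay beyond 2-fold, so 0 of 9 does not set the globin genes apart. The log2 ratio of replicate 1 over replicate 2 was 0.25 for Hbb-bs, 0.25 for Hbb-bt, 0.14 for Hba-a1 and 0.07 for Hba-a2. It was 0.11 for Hbb-bh1, -0.02 for Hbq1b, -0.07 for Hbb-y, -0.19 for Hba-x and -0.24 for Hbq1a. Over the scalings tried, the ratio of Hba-a2 turned as low as -0.07 and that of Hbb-bh1 as low as -0.02. The median of the 9 was 0.07 and that of all tested genes 0.00, with percentiles 5 and 95 at -0.48 and 0.64. Percentiles 25 and 75 were at -0.15 and 0.16, so Hbb-bs and Hbb-bt lay above this middle range. Hba-x and Hbq1a lay below it.

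Genes that act on globin or with it were present in both libraries. Of 13 erythroid markers, 12 were matched (all but Ahsp). All 12 stood at 1 TPM or more in both libraries, summing to 1384.5 and 1379 TPM. All 9 hepatocyte markers passed that level as well and summed to 149556 and 151177 TPM, so the libraries hold RNA of both cell types. Of 23 regulators of globin genes, all had at least 10 counts in both libraries, at a median of 16.6 TPM. The highest were Nfe2 (103 and 95.2 TPM), which binds the beta-globin locus control region as a subunit of NF-E2, Ldb1 (71.6 and 93.4 TPM), which links enhancers to promoters, Klf1 (85.0 and 74.2 TPM), an activator of the adult beta genes, and Lmo2 (63.5 and 69.5 TPM), a partner of Ldb1. Their log2 ratios of replicate 1 over replicate 2 had a median of -0.15, 6 being above 0 and 17 below, and 0 of 23 lay beyond 2-fold.

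Haem synthesis and the protection of haemoglobin were represented at higher levels. The 10 haem synthesis genes had a median of 132 TPM and included Alas2 (473 and 474 TPM), the erythroid enzyme of the first step, Urod (175 and 184 TPM), a later enzyme of the pathway, and the mitochondrial iron importer Slc25a37 (157 and 181 TPM). Their median log2 ratio was 0.04. Ahsp could not be matched by symbol and was not measured here. Of 6 genes of haemoglobin assembly and red cell redox balance, 5 were matched, at a median of 209 TPM and a median log2 ratio of 0.26. Among them were Cyb5a (733 and 644 TPM), which reduces methaemoglobin, Prdx2 (457 and 418 TPM), a peroxidase, Cat (225 and 193 TPM), which degrades hydrogen peroxide, and Cyb5r3 (73.3 and 71.9 TPM), which reduces Cyb5a. On TMM-scaled counts all 5 lay above 0, as did the 4 adult globin genes, but on TPM Eif2ak1 (22.4 and 23.5), the haem-regulated kinase, was lower in replicate 1, as was Hba-a2. In all, 0 of 5 lay beyond 2-fold. Cyb5a and Cat are also known from hepatocytes, and the part of each cell type was not tested.

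Red cell membrane genes stood at a median of 72.6 TPM over 13 genes, among them Slc4a1 (263 and 268 TPM), the band 3 anion exchanger, and the blood group genes Kel (107 and 110 TPM) and Rhd (102 and 99.4 TPM). Their median log2 ratio was 0.04. The 10 hepatocyte markers of the wider list had a median log2 ratio of 0.02, with Alb and Ahsg as given above, Trf (transferrin) at 18712 and 17875 TPM and Afp (alpha-fetoprotein) at 12676 and 13893 TPM.

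**Figure D3:**
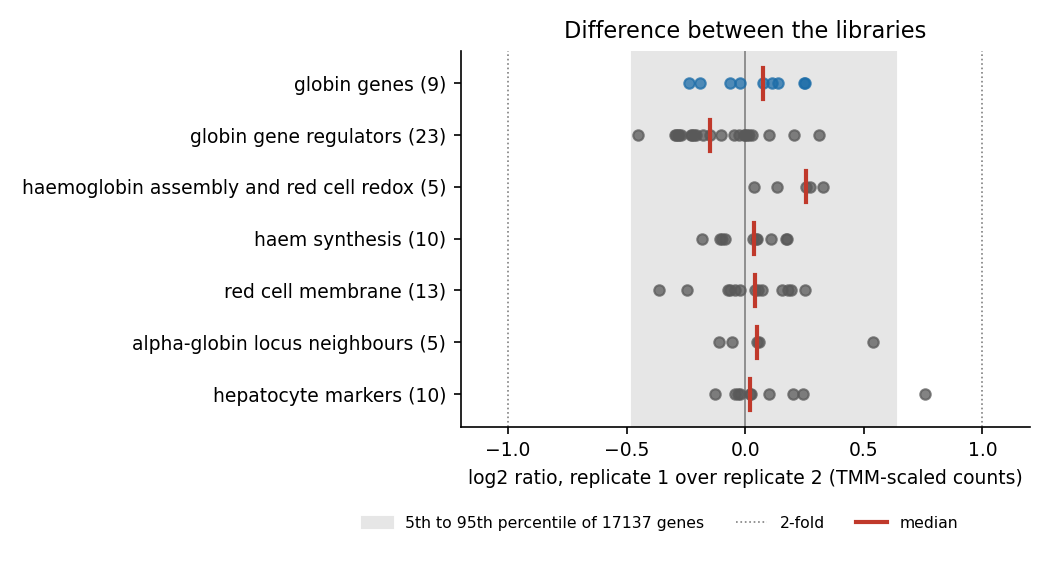
Log2 ratio of replicate 1 over replicate 2 on TMM-scaled counts for each globin gene and for the genes of 6 lists, with the list size in brackets and the median as a red bar. The grey band spans percentiles 5 to 95 of 17137 genes (-0.48 to 0.64), the dotted lines mark 2-fold, and all 9 globin genes lie inside the band.

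Other members of the globin superfamily were lower per length than the embryonic genes. Adgb (androglobin) had 1.23 and 1.82 TPM from 623 and 748 counts, Cygb (cytoglobin) 1.30 and 1.36 TPM from 429 and 371 counts, Ngb (neuroglobin) 0.09 and 0.14 and Mb (myoglobin) 0.07 and 0.03. The pseudogenes Hbb-bh3 and Hba-ps4 and the genes Hbb-bh2 and Hbb-bh0 were listed at 0 in both libraries. Of the 5 neighbours of the alpha cluster, Snrnp25 (28.8 and 31.1 TPM), a spliceosome protein, and Nprl3 (22.8 and 27.5 TPM), whose introns hold alpha-globin enhancers, were the highest. Mpg, a DNA repair glycosylase, had 6.93 and 7.23 TPM and Rhbdf1, an inactive rhomboid protein, 6.37 and 6.54 TPM.

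A second set of tables on the older build mm9 with ENSEMBL 65 genes gave another picture of the adult genes. It holds 2 RPKM values for each gene (read density per kilobase and depth), numbered 1 and 2 and not tied to a library by name, so they are the authors' values and carry no SD. Hba-a2 (chromosome 11, 32196489 to 32197301 on mm9) had 32579 and 32486 RPKM. Hba-a1 (32183511 to 32184465) had 27371 and 562 RPKM, a first value 48.7 times the second. Hbb-bs (chromosome 7, 110975048 to 110976610) had 25053 and 65.1 RPKM, and Hbb-bt (110961038 to 110962510) had 15842 and was listed at 0 in the second value.

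The other globin genes kept close values in that table. Hbq1b had 16.8 and 15.0 RPKM, Hbq1a 1.37 and 1.01, Hbb-y 1.29 and 1.18, Hba-x 0.697 and 0.598 and Hbb-bh1 0.439 and 0.418. Of the 7 globin genes with an RPKM of 1 or more in either value, 3 lay beyond 2-fold between the values, against 24.3% of 10278 genes. A first value over 10 times the second was found for 0.117% of the 10278 genes, and the 3 adult genes were all such genes among the 15 with a first value of 1000 or more.

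Within genes, the first mm9 value put 17.0% of Hba-a1 and 14.8% of Hba-a2 on the retained-intron transcript. The second put 0% and 11.8% there. For Hbb-bs, the first value lay on the main coding transcript (75.5%) and the retained-intron one (24.5%), and 89.8% of the small second value lay on a shorter coding transcript. The near-equal use of the retained-intron transcripts by both alpha copies in the first mm9 value stood beside the split of 61.15% and 0.05% on mm10.

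**Figure D4:**
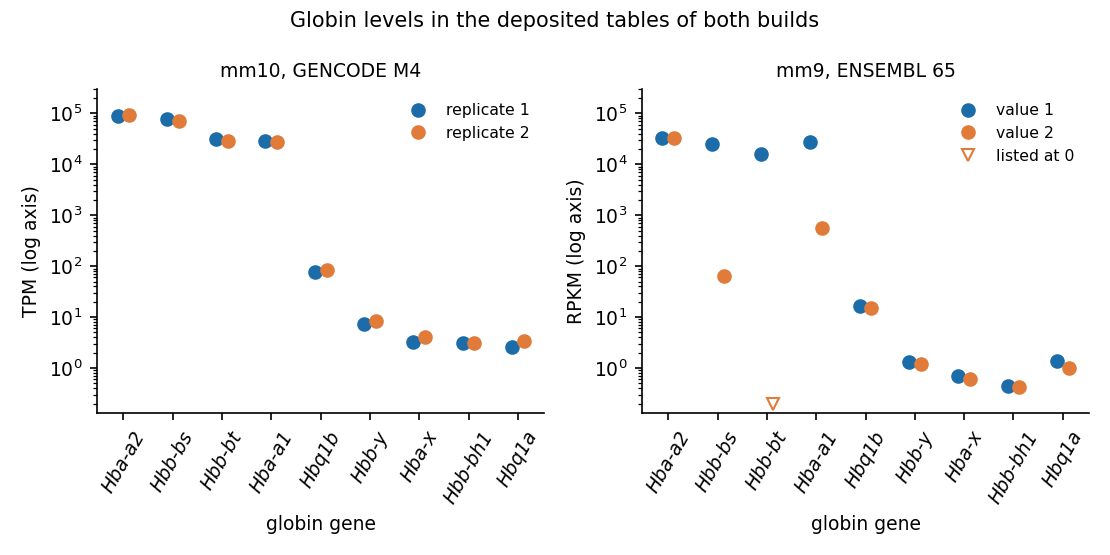
Levels of the globin genes in the mm10 tables (TPM, left) and in the mm9 table (RPKM, right), on log axes, with replicate 1 or the value numbered 1 in blue and replicate 2 or the value numbered 2 in orange. On mm9 the second value of Hba-a1, Hbb-bs and Hbb-bt is 562, 65.1 and listed at 0 (triangle), while both libraries stand at 26805 TPM or more on mm10.

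The junction list of the mm9 set counts spliced reads directly, also as values numbered 1 and 2. Inside the 9 genes, 20 junctions were marked as annotated, and both ends of all 20 fell on exon ends of the gene in ENSEMBL 65. In the second value the adult genes were high here: Hbb-bt had 1482641 and 985840 reads over intron 1 and 1995821 and 1384178 over intron 2. Hbb-bs had 1261593 and 864399 reads over intron 1 and 2647389 and 1818688 over intron 2. The low second RPKM values of Hbb-bs and Hbb-bt were thus not matched by low junction counts. For Hba-a1 the counts cannot decide this, since reads listed there may also be listed at Hba-a2. Hba-a2 had 1176800 and 1138933 reads over intron 1 and 2376491 and 1810441 over intron 2, and Hba-a1 had 1181775 and 1149506 over intron 1 and 2590108 and 1960654 over intron 2.

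The first value exceeded the second by 1.19 times over the whole list. Over the beta introns of the main transcripts the ratio was between 1.442 and 1.504, and over the alpha introns it was 1.03 for intron 1 of both genes, 1.32 for intron 2 of Hba-a1 and 1.31 for intron 2 of Hba-a2. In the embryonic genes, intron 1 and intron 2 of Hbb-y had 81 and 71 reads and 199 and 200 reads. Hba-x had 75 and 54 reads over intron 1 and 84 and 88 over intron 2, and Hbb-bh1 had 29 and 31 over intron 1 and 48 and 48 over intron 2. Every embryonic intron was therefore read as spliced in both values. Hbq1b had 1382 and 1336 reads over intron 1 against 67 and 74 for Hbq1a, and 1146 and 908 over intron 2 against 39 and 50. From Hbq1b to Hbq1a, 1305 and 1194 reads were listed for intron 1, close to the count of Hbq1b itself, and 34 and 45 for intron 2.

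Spliced reads did not separate the adult copies. Junctions from the donor of one copy to the acceptor of the other, which are not annotated, had almost the same counts as the introns themselves. From Hba-a1 to Hba-a2 there were 1173827 and 1136275 reads for intron 1 and 2376197 and 1809616 for intron 2, which is between 99.75% and 99.99% of the smaller count inside a gene. From Hbb-bs to Hbb-bt there were 1258767 and 860726 reads for intron 1 and 1993630 and 1381140 for intron 2, between 99.58% and 99.89% of the smaller count. Whether each read was listed at every matching site was not tested, so a sum over both copies may count a read more than once.

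The excess over the between-copy count is limited by the order of the copies, since such junctions run only from the upstream copy to the downstream one. The copy that holds this excess is therefore no sign of which copy is used more. For the alpha pair it was larger on Hba-a1 at intron 1, with 7948 and 13231 reads against 2973 and 2658 for Hba-a2, and at intron 2, with 213911 and 151038 reads against 294 and 825 for Hba-a2. For the beta pair it lay on Hbb-bt at intron 1, with 223874 and 125114 reads against 2826 and 3673 for Hbb-bs. At intron 2 of the beta pair it lay on Hbb-bs, with 653759 and 437548 reads against 2191 and 3038 for Hbb-bt. Since reads may be listed at both copies, the junction counts do not measure the split within a pair.

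**Figure D5:**
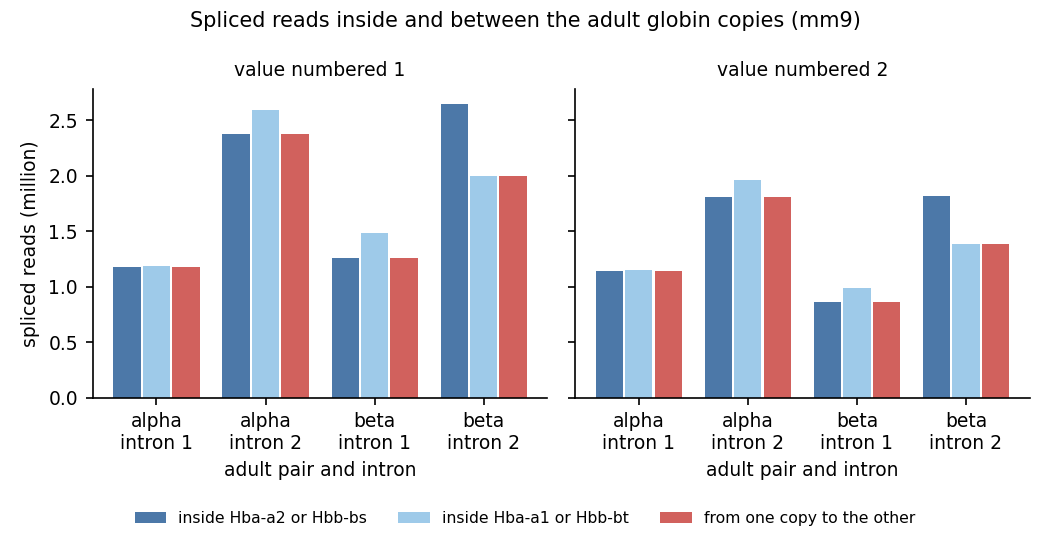
Spliced reads over introns 1 and 2 of the adult alpha and beta pairs on mm9, in the values numbered 1 (left) and 2 (right). Dark blue bars count reads inside Hba-a2 or Hbb-bs, light blue bars reads inside Hba-a1 or Hbb-bt, and red bars reads from one copy to the other, which reach 99.58% to 99.99% of the smaller blue bar.

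Exon ends of the embryonic genes also appeared joined to adult exons. The last 30 coding bases of exon 2, next to intron 2, are shown for the genes that share such junctions. They are taken from GENCODE M21 on mm10, and capitals mark bases that differ from Hba-a2 in the alpha-like set and from Hbb-bs in the beta-like set.
Hba-a2: aagctgcgtgtggatcccgtcaacttcaag
Hba-a1: aagctgcgtgtggatcccgtcaacttcaag
Hba-x: aTCctgcgtgtggatccGgtcaacttcaag
Hbq1b: aagctCTgtgtggaCccTgCTaacttcCag
Hbb-bs: aagctgcatgtggatcctgagaacttcagg
Hbb-bt: aagctgcatgtggatcctgagaacttcagg
Hbb-y: aagctAcatgtggatcctgagaacttcaAA
Hbb-bh1: aagctTcatgtggatcctgagaacttcaAg

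The stretches lie at chr11:32296916-32296945 (Hba-a2), chr11:32284099-32284128 (Hba-a1), chr11:32277744-32277773 (Hba-x), chr11:32287378-32287407 (Hbq1b), chr7:103827448-103827477 (Hbb-bs), chr7:103813439-103813468 (Hbb-bt), chr7:103852748-103852777 (Hbb-y) and chr7:103842691-103842720 (Hbb-bh1). The adult copies were identical over the whole of exon 2, which has 205 bases in the alpha pair and 223 in the beta pair. Hba-x differed at 3 of these 30 bases and shared the last 12 before the splice. Hbb-y differed at 3, Hbb-bh1 at 2 and Hbq1b at 7.

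Reads were listed from exon 2 of Hba-x to exon 3 of Hba-a1 (1972 and 898) and of Hba-a2 (1770 and 819), more than over intron 2 of Hba-x itself. From exon 2 of Hbb-bh1 there were 991 and 573 reads to Hbb-bs and 793 and 441 to Hbb-bt, also more than over its own intron 2. From exon 2 of Hbb-y there were 129 and 158 reads to Hbb-bs and 106 and 135 to Hbb-bt, fewer than over its own intron 2. The pseudogene Hbb-bh3, listed at 0 on mm10, had 25543 and 21248 reads to Hbb-bs and 7808 and 6307 to Hbb-bt. Whether these junctions come from transcripts or from the placement of adult globin reads was not tested.

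Unannotated junctions inside the genes were many and shallow. There were 5064 of them with 129454 reads in both values together, against 25831722 listed over the 20 annotated ones. In both sums a read may stand at both adult copies, and so may an unannotated junction. Hba-a2 held 1243 unannotated junctions and Hba-a1 1326. By gene the unannotated junctions held 0.404% of spliced reads in Hba-a2, 0.402% in Hba-a1, 0.702% in Hbb-bs and 0.487% in Hbb-bt. The highest had 5186 and 3214 reads, in Hbb-bs. The embryonic genes had 1 such junction in Hba-x, 2 in Hbb-y and 0 in Hbb-bh1.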

How the data were processed

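Stranded poly(A)+ RNA-seq of E18 C57BL/6J liver was deposited for 2 libraries. For each library, the authors deposited expected counts, which share out reads that match several genes, with TPM, FPKM and posterior values on mm10 with GENCODE M4, and the percent of a gene's TPM on each transcript, per the file headers and deposited notes. The mm9 tables (ENSEMBL 65) give both replicates together: per the file headers, RPKM values stand as numbered attributes, junction reads are deposited as whole counts, and contigs carry a deposited signal of unstated scale. No source used here names the aligner or quantifier.

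The depth was 163766625 expected counts for replicate 1 and 139889938 for replicate 2, and mouse genes held 97.2% and 97.9% of these; other rows (spike-ins and controls) were left out of scaling. Counts were rounded and scaled by TMM (edgeR 4.0.16, R 4.3.3), with 0.5 added before log2. A gene was compared with at least 10 counts in both libraries and called beyond 2-fold. The step was tested on simulated data. Shares and ratios used TPM; other units, DESeq2 1.42.0 size factors and left-out replicates were alternatives. Symbols and positions came from GENCODE M21 by unversioned identifier. Junction ends were checked against ENSEMBL 65 exons. Sequences came from RefSeq (promoters, GRCm38.p6) and GENCODE M21 (transcripts); motifs were searched on both strands.

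The genes, lists and rules were chosen with earlier results of these data known. The text names all 9 globin genes, up to 4 genes of each list by mean TPM (2 of these genes are not reported here), and the protein-coding genes next in level. Intervals cover counting or model error only.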

Additional observations from a re-analysis of the deposited data

How the results depend on the processing

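The alpha over beta ratio and the split within the adult pairs changed with the measure. TPM divides counts by effective length, whereas expected counts do not. In replicates 1 and 2 this length was 552 and 546 bases for Hbb-bs and 488 and 478 for Hbb-bt. For Hba-a2 it was 339 and 329 bases, and for Hba-a1 359 and 368. The cause of the changes under the other measures was not tested. Sums of spliced reads may count a read at both adult copies, so the spliced-read ratios to embryonic genes may be too high and the spliced-read shares within a pair do not measure the split. The globin share of TPM (22.1%) was 8.88% by expected counts, 22.8% over mouse genes only and 23.1% without mt-Atp8. Alpha over beta (1.14) was 0.736 by expected counts, 1.47 and 495.5 by the first and second mm9 RPKM value, 0.992 and 1.2 by spliced reads, and 1.02 without retained-intron transcripts, an alternative chosen after seeing the data. Adult over embryonic beta (9415) was 11662 by expected counts, 23611 and 40.7 by mm9 RPKM, and 20694 and 14438 by spliced reads. Adult over embryonic alpha (32690) was 19181, then 85968 and 55244, and 45782 and 42374 by the same measures. The Hba-a2 share (76.6%) was 75.1% by expected or posterior mean counts, 54.3% and 98.3% by mm9 RPKM, 48.5% and 48.7% by spliced reads and 88.3% without retained-intron transcripts. The Hbb-bs share (71.0%) was 73.6% by either count, 61.3% and 100% by mm9 RPKM, 52.9% and 53.1% by spliced reads and 70.2% without retained-intron transcripts. Leaving out a replicate gave a globin share of 21.8% to 22.4%, alpha over beta of 1.08 to 1.21, adult over embryonic ratios of 8507 to 10323 (beta) and 29554 to 35827 (alpha), and shares of 75.7% to 77.5% (Hba-a2) and 70.9% to 71.2% (Hbb-bs). No globin gene lay beyond 2-fold between libraries under any of the 6 settings run. Over all genes compared, 470 did, or 350 to 470 under the other settings with the filter and 4223 of 43346 with no filter on low counts. Of 9 globin genes, 2 (Hba-a2 and Hbb-bh1) changed sign between settings. The log2 ratios could not be fitted with a replicate left out. Depth limits the embryonic genes, at 159 to 508 counts per library. No paired analysis was possible because there is 1 group.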

Other observations

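The contig list of the mm9 set gives stranded stretches of read coverage over both replicates, with a signal from the authors whose scale no source used here states. In the alpha cluster (chromosome 11, 32176400 to 32200873), 11 contigs lay on the strand of the globin genes and 9 on the opposite strand. One contig of 9596 bases with a signal of 520 covered Hba-a1 and Hbq1b, and the next, of 7379 bases with a signal of 105, covered Hba-a2 and part of Hbq1a, so coverage ran on between the genes. The highest opposite-strand signal was 1.40, in a contig of 191 bases between Hba-x and Hba-a1.

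In the beta cluster (chromosome 7, 110961038 to 111001754), 21 contigs lay on the gene strand and 8 on the opposite strand. The contig over Hbb-bs had a signal of 4870 over 2790 bases and the one over Hbb-bt 777 over 6683 bases. On the opposite strand the highest signal was 0.115. A contig of 55 bases with a signal of 1.69 lay at 110981964 to 110982018, at the exon edge of the pseudogene Hbb-bh3 to which junctions were listed. Contigs over the embryonic genes had signals of 3.27 and 1.89 (Hbb-y), 0.880 and 1.49 (Hbb-bh1) and up to 5.37 (Hba-x).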
